A study of Mus musculus with 35 samples.

Results

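The genes described here are 8 members of the phosphoinositide 3-kinase (PI3K) and AKT signaling axis, taken by name from the deposited gene counts: Pik3cd, Pik3r1, Pdpk1, Akt1, Akt2, Pik3ip1, Inpp5d and Foxo3. They are 8 of 48709 genes in the count tables, and all 8 were among the 13819 genes with enough counts to be tested. Their raw counts ran from 379 (Pik3ip1) to 42921 (Pik3cd) per library, so none of them was near the limit of detection.

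Class I PI3K is built from a catalytic subunit and a regulatory subunit, and it makes the membrane lipid PIP3 when receptors for cytokines or antigen are engaged. PIP3 brings the kinases PDK1 (encoded by Pdpk1) and AKT to the membrane, where PDK1 and mTORC2 phosphorylate AKT. Active AKT keeps FOXO transcription factors out of the nucleus, and the pathway is held back by lipid phosphatases and by PIK3IP1, a membrane protein that inhibits PI3K. In CD8+ T cells this axis is known as one of the routes by which IL-2 and the T-cell receptor act on growth, metabolism and the choice between effector and memory states.

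The cells were CTLs (cytotoxic T lymphocytes) grown from OT-I mice, whose CD8+ T cells carry a transgenic receptor for an ovalbumin peptide, so every group shares 1 antigen specificity and the same earlier activation with antibodies against CD3 and CD28 and expansion in IL-2. Replicates numbered 1 to 5 in the labels were each sampled at 0 h and after 24 h in 6 conditions, which were pH 7.4, pH 7 or pH 6.6 in medium without IL-2 or with IL-2 at 200 IU/mL. This gives 7 groups of 5, in all 35 libraries of bulk RNA-seq from cells freed of dead cells on Ficoll. The comparisons ask how acid pH changes the RNA of these genes, with and without the cytokine, and how the response to IL-2 depends on pH. The age and sex of the mice are not given in the sources used here, and CTLs expanded in culture are a model of effector cells rather than T cells taken from a tumor.

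Total counts on genes ran from 16721319 to 34033340 per library (median 24730020). Levels are given as CPM, counts divided by these totals after TMM scaling and put on a common scale, so they are relative to the other RNA of the library, and in bulk samples fewer cells of a type and less RNA per cell cannot be told apart. All 9 genes listed for CD8+ T cells were present in every library. Cd3e ran from 350.1 to 611 CPM and Cd8a from 624 to 1575 CPM, while the cytotoxic genes Gzmb (39.4 to 8872 CPM) and Prf1 (10.4 to 682 CPM) varied most. The summed level of this list moved with the conditions, at 11750 to 14410 CPM at 0 h, 3010 to 4464 CPM in the 3 groups without IL-2, 9179 to 12830 CPM at pH 7 and pH 7.4 with IL-2 and 3874 to 5674 CPM at pH 6.6 with IL-2. Of the 3 genes listed for CD4+ T cells, Cd4 was at most 2.57 CPM and Foxp3 at most 5.53 CPM, whereas Zbtb7b was at 15.3 to 60.0 CPM in every library. The B-cell genes Ms4a1 and Pax5 were at 0 in 35 of 35 libraries, and the myeloid genes Lyz2 and Csf1r were at 0 in 28 and 29. Of the 3 genes listed for natural killer cells, Ncr1 was at 0 in 25 libraries, while Eomes and Klrb1c, which activated CD8+ T cells also express, were present throughout, and their summed level with Ncr1 was 358 to 474 CPM at 0 h, 116 to 195 CPM in the 3 groups without IL-2, 565 to 670.0 CPM at pH 7 and pH 7.4 with IL-2 and 176 to 266 CPM at pH 6.6 with IL-2. The share of reads outside annotated genes also differed between groups, with medians of 4.33% at pH 7.4 with IL-2, 7.86% at pH 6.6 with IL-2, 9.43% at pH 7.4 without IL-2 and 4.89% at 0 h, and the part of these levels and shares in the results was not tested.

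Each of the 8 is a protein-coding gene annotated in GRCm38. Pik3cd lies at chr4:149649168-149702571 on the minus strand, Pik3r1 at chr13:101680563-101768217 (minus), Pdpk1 at chr17:24073680-24150924 (minus), Akt1 at chr12:112653821-112674884 (minus), Akt2 at chr7:27591552-27640826 (plus), Pik3ip1 at chr11:3330401-3342971 (plus), Inpp5d at chr1:87620312-87720507 (plus) and Foxo3 at chr10:42181841-42276755 (minus). Of 50-base windows of their annotated transcripts, 99.0% to 100% were unique among annotated transcripts for 7 of the genes, and 90.2% for Akt2, which shares the remainder with the pseudogene Akt2-ps. A read that does not extend beyond these shared windows could not be told apart from Akt2-ps by its sequence. An antisense gene, Gm12592, covers 2.13% of the exon bases of Pik3ip1, and the strand setting of the counting is not given in the sources used here.

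Akt1 and Akt2 encode closely related AKT kinases, and their upstream sequences are shown because, of 16 windows of 250 bases before the RefSeq transcription starts of the 8 genes, theirs were the only 2 that held a match to any of 4 motifs searched on both strands. The motifs were a FOXO motif (GTAAACA), a STAT motif (TTCNNNGAA), the E-box bound by MYC-type factors (CACGTG) and the CRE bound by CREB (TGACGTCA), none of which overlapped another in these windows. Among 32851 windows of the same length in RefSeq's GRCm38.p6 table, 3.17% held the FOXO motif, 7.02% the STAT motif, 6.02% the E-box and 1.55% the CRE. Capitals mark the match in each window below, written 5′ to 3′ along the gene's strand.
Akt1, chr12:112674885-112675134 (minus): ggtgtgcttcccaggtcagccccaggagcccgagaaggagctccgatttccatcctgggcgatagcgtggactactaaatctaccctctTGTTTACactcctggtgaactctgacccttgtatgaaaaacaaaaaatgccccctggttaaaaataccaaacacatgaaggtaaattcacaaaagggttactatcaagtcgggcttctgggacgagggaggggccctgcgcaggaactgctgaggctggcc
Akt2, chr7:27591302-27591551 (plus): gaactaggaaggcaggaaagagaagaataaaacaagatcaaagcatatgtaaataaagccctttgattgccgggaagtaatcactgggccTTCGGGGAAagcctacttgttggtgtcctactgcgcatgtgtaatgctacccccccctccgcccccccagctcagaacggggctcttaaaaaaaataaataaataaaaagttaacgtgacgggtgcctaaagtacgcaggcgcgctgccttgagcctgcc
The Akt1 match is the FOXO motif on the opposite strand and begins 161 bases before a start of Akt1, and the Akt2 match is the STAT motif and begins 160 bases before a start of Akt2. Neither window overlaps an annotated exon, whereas all 250 bases of the window searched for Pik3ip1 lie in annotated exons. Binding was not measured, and the matches are described only as letters.

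With IL-2 present, pH 6.6 was accompanied by a higher level of the PI3K inhibitor gene Pik3ip1 and of Foxo3, and by a lower level of Akt1. Pik3ip1 was 9.25-fold higher at pH 6.6 than in the pH 7.4 group, Foxo3 was 2.58-fold higher, and Akt1 was 2.02-fold lower. In all, 6 of the 8 genes passed an adjusted p of 0.05 in edgeR's quasi-likelihood test (Pik3ip1, Foxo3, Pik3r1 and Pdpk1 higher, Akt1 and Akt2 lower), where 76.3% of all genes tested passed (35.4% higher and 40.9% lower). The count of members is therefore no more than the background, and what sets members apart from each other is the size of their changes. The members are described below by their role in the pathway, with the response to acid beside the response to IL-2. These comparisons are not independent, since each condition with IL-2 enters both.

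**Figure D1:**
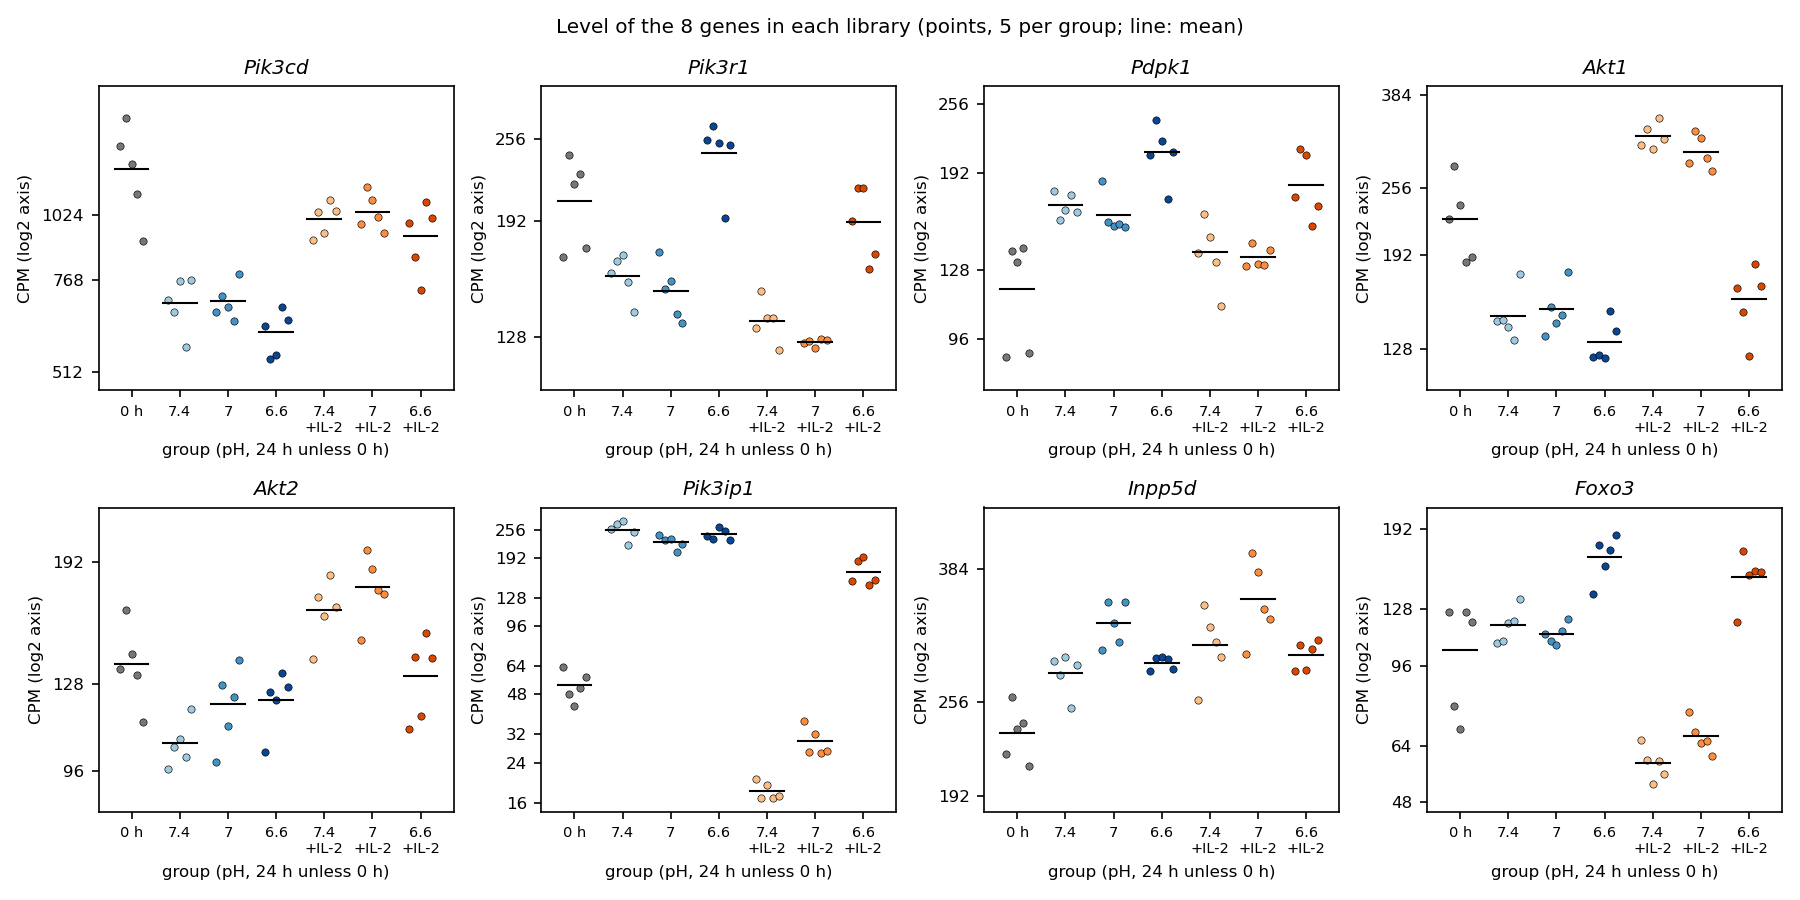
Level of each of the 8 genes in CPM (log2 axis, a different range in each panel) in the 7 groups, with 1 point per library (5 per group) and a line at the group mean. Pik3ip1 ran from 16.8 to 20.2 CPM at pH 7.4 with IL-2 and from 147 to 194 CPM at pH 6.6 with IL-2, whereas the group means of Inpp5d lay within 0.59 of each other on the log2 scale.

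Pik3cd encodes p110 delta, the catalytic subunit of class I PI3K that predominates in leukocytes. Its level was the highest of the 8 per kilobase of exon, at 142 CPM per kilobase over all libraries, against 14.5 for Pdpk1 and 14.7 for Foxo3. In replicates 1 to 5 it stood at 703, 667, 763, 570.3 and 769 CPM at pH 7.4 and at 916, 1035, 945, 1095 and 1041 CPM at pH 7.4 with IL-2. Every library with IL-2 was above every library without it at this pH, a log2 fold change of 0.53 (SE 0.11, adjusted p = 9.32e-05). The difference with IL-2 was of like size at pH 7 (log2 fold change 0.57, SE 0.11) and at pH 6.6 (0.61, SE 0.11, adjusted p = 0.000149), and the test of pH 6.6 against pH 7.4 in this response gave 0.08 on the log2 scale with a 95% interval of -0.25 to 0.41. The response of Pik3cd to pH 6.6 did not exceed the spread between replicates, at -0.11 (95% interval -0.34 to 0.12) with IL-2 and -0.19 (-0.42 to 0.04) without it. The value without IL-2 was -0.30 without replicate 4 and then passed (adjusted p = 0.0379). The CTLs at 0 h had the highest mean, with values of 1389, 1571, 1282, 1120.2 and 912 CPM, and next came the 3 groups with IL-2, which did not differ as neighbors in the order of means (adjusted p = 0.384 and 0.832).

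Pik3r1 encodes the regulatory subunit p85 alpha, which stabilizes the catalytic subunit and holds it inactive until it is recruited. It rose at pH 6.6 both with and without the cytokine. With IL-2 the 5 libraries were at 132, 150.1, 137, 136 and 122 CPM at pH 7.4 and at 192, 215, 216, 162 and 171 CPM at pH 6.6, with no overlap. The log2 fold change was 0.49 (SE 0.08, adjusted p = 3.15e-06). Without IL-2 the values were 160.0, 167, 171, 155 and 139.7 CPM at pH 7.4 and 255, 268, 252, 194 and 251 CPM at pH 6.6, again without overlap, although replicate 4 at pH 6.6 stood well below the other 4. Here the log2 fold change was 0.62 (SE 0.08, adjusted p = 8.78e-08), and the difference between the responses with and without IL-2 was -0.13 (95% interval -0.37 to 0.11, adjusted p = 0.331). Pik3r1 was lower with IL-2 at each pH, by a log2 fold change of -0.23 at pH 7.4, -0.26 at pH 7 and -0.36 at pH 6.6, all 3 past the threshold.

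Without IL-2, the comparison of pH 6.6 with pH 7.4 called 4 of the 8 members, all higher (Pik3r1, Foxo3, Pdpk1 and Akt2), against 67.0% of all genes tested called, 31.6% higher and 35.4% lower. At pH 7 without IL-2 no member was called, by edgeR or by DESeq2, where edgeR called 1.68% of genes (1.36% higher and 0.318% lower), and 2 of the 8 members (Akt2 and Inpp5d) had an unadjusted p under 0.05. With only the groups compared, Pik3ip1 passed there (-0.18, adjusted p = 0.0264), as did Inpp5d. With IL-2, pH 7 called Pik3ip1 and Inpp5d, both higher, so 2 of 8 against 19% of all genes (9.15% higher and 9.83% lower).

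Pdpk1 encodes PDK1, which phosphorylates the activation loop of AKT and of several related kinases. Its changes were small. At pH 6.6 with IL-2 it was at 174, 211, 206, 153 and 167 CPM against 137, 161, 147, 132 and 110.2 CPM at pH 7.4, higher in 5 of 5 pairs though the groups overlapped (log2 fold change 0.41, SE 0.10, adjusted p = 0.000752). Without IL-2 the log2 fold change was 0.31 (SE 0.10, adjusted p = 0.00865), higher in 4 of 5 pairs, and this call was lost without replicate 2 (adjusted p = 0.0755) or replicate 3 (0.0699). With IL-2 it was lower at pH 7.4 (log2 fold change -0.29, adjusted p = 0.0109, lost without replicate 5 at 0.0747) and at pH 7 (-0.25, adjusted p = 0.0268, lost without replicate 1 at 0.128 and with the loosest filter at 0.0545). At 0 h Pdpk1 had its lowest mean, and the libraries fell apart into 89.1 and 90.4 CPM (replicates 1 and 5) and 132 to 140.3 CPM (the other 3). Reads aligned to more than 1 place made up 42.7% and 48.3% in replicates 1 and 5 at 0 h. In the other 3 they made up 39.3% to 40.6%, and the part of this share in the split was not tested.

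Akt1, an AKT kinase gene linked to survival and growth, had the largest increase with IL-2 among the members at pH 7.4. Its values were 144, 145, 141, 133 and 177 CPM at pH 7.4 and 309, 332, 303, 346 and 316 CPM at pH 7.4 with IL-2, so that the lowest library with IL-2 was above the highest without it. The log2 fold change was 1.12 (SE 0.10, adjusted p = 9.03e-12), and at pH 7 it was 0.98 (SE 0.10, adjusted p = 2.01e-10). At pH 6.6 the libraries stood at 124, 125, 123, 151 and 139 CPM without IL-2 and 167, 150.4, 124, 185 and 168 CPM with it, and these groups overlapped. The log2 fold change of 0.26 (SE 0.10) missed the threshold at an adjusted p of 0.0564, with a positive difference in 5 of 5 pairs, and it passed under 5 of the alternative settings, DESeq2 among them (adjusted p = 0.0381). With IL-2, the step from pH 7.4 to pH 6.6 gave a log2 fold change of -1.02 (SE 0.10, adjusted p = 1.05e-10), with no overlap between groups, whereas without IL-2 it was -0.16 (95% interval -0.37 to 0.04, adjusted p = 0.16), and -0.25 without replicate 4, which passed (0.0445). The difference between these responses was itself past the threshold, at -0.86 on the log2 scale (SE 0.14, adjusted p = 4.15e-06). In the order of group means, pH 6.6, pH 7.4 and pH 7 without IL-2 and pH 6.6 with IL-2 came lowest, with no neighbors differing, then 0 h, then pH 7 and pH 7.4 with IL-2, which did not differ from each other (adjusted p = 0.548).

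Akt2, whose product is the AKT kinase best known from insulin signaling, was also higher with IL-2 at neutral pH, by less than Akt1. It was at 96.5, 104, 107, 101 and 118 CPM at pH 7.4 and 139, 171, 161, 184 and 165 CPM at pH 7.4 with IL-2, without overlap (log2 fold change 0.63, SE 0.08, adjusted p = 1.57e-08). At pH 6.6 with IL-2 the values were 110.5, 139.9, 115, 152 and 139 CPM, overlapping those at pH 7.4 but lower in 5 of 5 pairs (log2 fold change -0.32, SE 0.08, adjusted p = 0.000626), a call that lay at the threshold without replicate 3 (adjusted p = 0.0504, log2 fold change -0.21). Without IL-2 Akt2 went the other way, at 102, 125, 121, 133 and 127 CPM at pH 6.6 and a log2 fold change of 0.20 (SE 0.08, adjusted p = 0.0265). That call was lost without the replicate block (adjusted p = 0.0734), with the loosest filter on low counts (0.0695) and without replicate 2, 3 or 4 (0.0856, 0.0956 and 0.134). The test of the difference between both responses passed, at -0.53 (SE 0.11, adjusted p = 0.000157).

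The balance of the 2 AKT genes was compared within each library, as the ratio of counts per kilobase of annotated exon, which does not depend on scaling between libraries. The Akt1 to Akt2 ratio had a median of 3.33 (3.28 to 3.86, n = 5) at pH 7.4 with IL-2 and of 2.10 (1.87 to 2.62, n = 5) at pH 6.6 with IL-2. The groups did not overlap, and the mean log2 ratio differed by -0.70 at pH 6.6, with a two-sided exact permutation p of 0.00794, the smallest that 5 against 5 allows (0.0106 after adjustment over 8 such tests). It was also lower at pH 6.6 without IL-2, with medians of 1.90 and 2.42 and the same p, and higher with IL-2 at pH 7.4. At pH 6.6 the ratio with IL-2 and without it differed by 0.15 on the log2 scale, which did not exceed the spread (exact permutation p = 0.183, without regard to pairs). Within replicates it was higher with IL-2 in 5 of 5 pairs, by 0.09 to 0.32, where a two-sided exact test over 5 pairs cannot go below 0.0625.

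The ratio of Pik3r1 to Pik3cd, the regulatory to the catalytic subunit, rose at pH 6.6. With IL-2 its median was 0.0896 at pH 7.4 and 0.121 at pH 6.6, and without IL-2 it was 0.141 and 0.253. The mean log2 ratio was higher at pH 6.6 by 0.61 with IL-2 and by 0.80 without it, each with an exact permutation p of 0.00794 (n = 5 per group, adjusted 0.0106). The difference was uneven between replicates. It was present in 5 of 5 pairs in each case, by 0.26 to 1.02 with IL-2 and by 0.07 to 1.10 without it. With IL-2 the ratio was lower, with a difference in mean log2 ratio of -0.77 at pH 7.4 (exact permutation p = 0.00794) and -0.96 at pH 6.6 (exact permutation p = 0.0159, adjusted 0.0181). Pik3r1 counts do not include other regulatory subunits, so the ratio describes these 2 genes and not the composition of the enzyme.

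**Figure D2:**
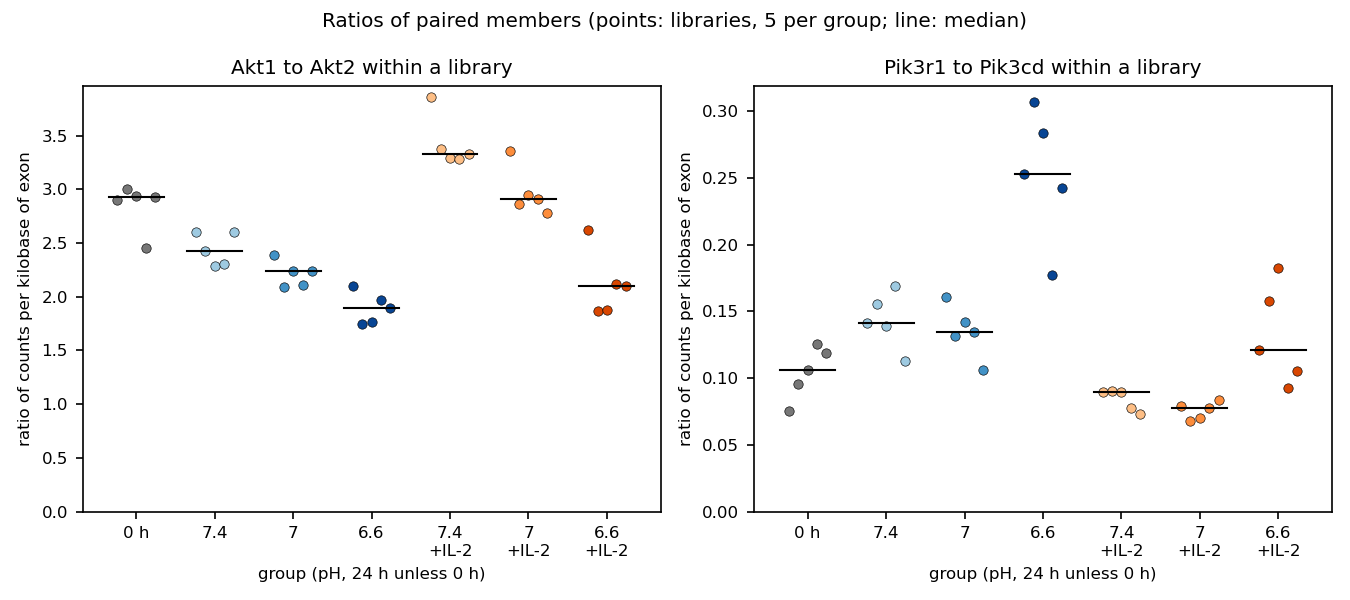
Ratio of counts per kilobase of exon within each library, Akt1 to Akt2 (left) and Pik3r1 to Pik3cd (right), in the 7 groups, with 1 point per library (5 per group), a line at the median and axes from 0. The Akt1 to Akt2 median with IL-2 was 3.33 at pH 7.4 and 2.10 at pH 6.6, and the Pik3r1 to Pik3cd median was highest, 0.253, at pH 6.6 without IL-2.

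Pik3ip1, whose protein binds PI3K and lowers its activity in T cells, had the largest range of the 8 genes, 3.82 on the log2 scale between group means. At pH 7.4 with IL-2 the libraries stood at 20.2, 16.8, 19.2, 16.8 and 17.1 CPM, the lowest of any group. At pH 7 with IL-2 they were at 36.6, 26.6, 32.1, 26.6 and 27.1 CPM, and at pH 6.6 with IL-2 at 152, 186, 194, 147 and 153 CPM. None of these 3 groups overlapped another, and the level was higher at each lower pH. Relative to pH 7.4 the log2 fold change was 0.72 at pH 7 (SE 0.09, adjusted p = 2.81e-06) and 3.21 at pH 6.6 (SE 0.10, adjusted p = 7.6e-23).

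Without IL-2 the level of Pik3ip1 was high at every pH. The 5 libraries were at 257, 271, 279, 219 and 251 CPM at pH 7.4, at 243, 230.2, 232, 204 and 222 CPM at pH 7 and at 240.4, 233, 263, 253 and 231 CPM at pH 6.6, and these groups overlapped. Acid pH gave a log2 fold change of -0.06 (95% interval -0.24 to 0.12, adjusted p = 0.543). The response to pH 6.6 with IL-2 exceeded that without it by 3.27 on the log2 scale (SE 0.13, adjusted p = 8.72e-20), and the response to pH 7 by 0.90 (SE 0.13, adjusted p = 0.000193). Expressed as the response to IL-2, Pik3ip1 was 14.2-fold lower with IL-2 at pH 7.4, a log2 fold change of -3.83 (SE 0.10), and 1.47-fold lower at pH 6.6, a log2 fold change of -0.55 (SE 0.09, adjusted p = 1.4e-05). The groups did not overlap in either case, so a residual difference with IL-2 was measurable at pH 6.6.

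CTLs at 0 h, taken from expansion in IL-2, had Pik3ip1 at 63.5, 48.2, 42.8, 51.3 and 57.0 CPM. This was above both the pH 7.4 and pH 7 groups with IL-2 and below all others, and each neighboring step in the order of means up to pH 7 without IL-2 passed the threshold. Against this start, 24 h at pH 7.4 with IL-2 gave a log2 fold change of -1.55 (adjusted p = 4.3e-15), pH 7.4 without IL-2 gave 2.28 (2.95e-20) and pH 6.6 with IL-2 gave 1.66 (1.79e-16). These 3 comparisons share the 0 h libraries.

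Inpp5d encodes SHIP1, the phosphatase that removes the 5-phosphate of PIP3 in blood cells. It was the member that varied least, with group means within 0.59 of each other on the log2 scale. With IL-2 its libraries were at 257, 344, 321, 307 and 293 CPM at pH 7.4, 296, 403, 381, 340.5 and 330.0 CPM at pH 7 and 281, 304, 282, 301 and 309 CPM at pH 6.6, groups that all overlapped. The log2 fold change at pH 6.6 with IL-2 was -0.04 (95% interval -0.18 to 0.10, adjusted p = 0.613). It became 0.02 with RLE scaling in place of TMM and ran from -0.08 to 0.07 without any 1 replicate. That for IL-2 against none at pH 7.4 was 0.12 (-0.02 to 0.25, adjusted p = 0.111), and 0.19 without replicate 1, which passed (adjusted p = 0.0175). At pH 7 with IL-2 it was slightly higher than at pH 7.4 (log2 fold change 0.20, SE 0.07, adjusted p = 0.0341), but this call was lost without the replicate block (0.0864), with the loosest filter (0.118) and without any 1 of the 5 replicates (0.0523 to 0.164). Without IL-2 the pH 7 libraries lay above those at pH 7.4 without overlap, but the log2 fold change of 0.22 missed the threshold (adjusted p = 0.115) and passed without replicate 1 (0.0462) or with only the groups compared in the fit (0.0192). All 6 groups at 24 h were higher than 0 h, by 0.27 at pH 7.4 without IL-2 up to 0.59 at pH 7 with IL-2 on the log2 scale.

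Foxo3 encodes a transcription factor that AKT phosphorylates and that acts when AKT is quiet. With IL-2 its libraries stood at 65.7, 59.5, 52.6, 59.0 and 55.5 CPM at pH 7.4, 76.0, 68.4, 64.7, 65.4 and 60.7 CPM at pH 7 and 120.1, 172, 152, 155 and 155 CPM at pH 6.6. The pH 6.6 group lay entirely above the others, with a log2 fold change over pH 7.4 of 1.37 (SE 0.12, adjusted p = 3.83e-12), while pH 7 and pH 7.4 overlapped (0.20, 95% interval -0.04 to 0.44), a difference that passed with only the groups compared in the fit (adjusted p = 0.0068). Without IL-2 the values were 107, 109, 119, 121 and 135 CPM at pH 7.4 and 138, 177, 159, 173 and 186 CPM at pH 6.6, again without overlap. This response was smaller, at 0.50 (SE 0.12, adjusted p = 0.000398), and the difference between both was 0.87 (SE 0.17, adjusted p = 2.64e-05). With IL-2 Foxo3 was 2.02-fold lower at pH 7.4 (log2 fold change -1.01, adjusted p = 2.51e-09), and at pH 6.6 the difference was -0.14 (95% interval -0.38 to 0.10, adjusted p = 0.409). At 0 h the libraries were divided, with 78.3 and 69.5 CPM in replicates 2 and 3 and 119.9 to 126 CPM in the other 3. These are RNA levels, and the activity of AKT or FOXO proteins was not measured in these libraries. In the study's own immunoblots, taken at an earlier time, Akt phosphorylation was unaltered at pH 6.6, and no decrease was detected for phosphorylated FoxO. The paper reports a modest decrease for PRAS40, another direct target of Akt.

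**Figure D3:**
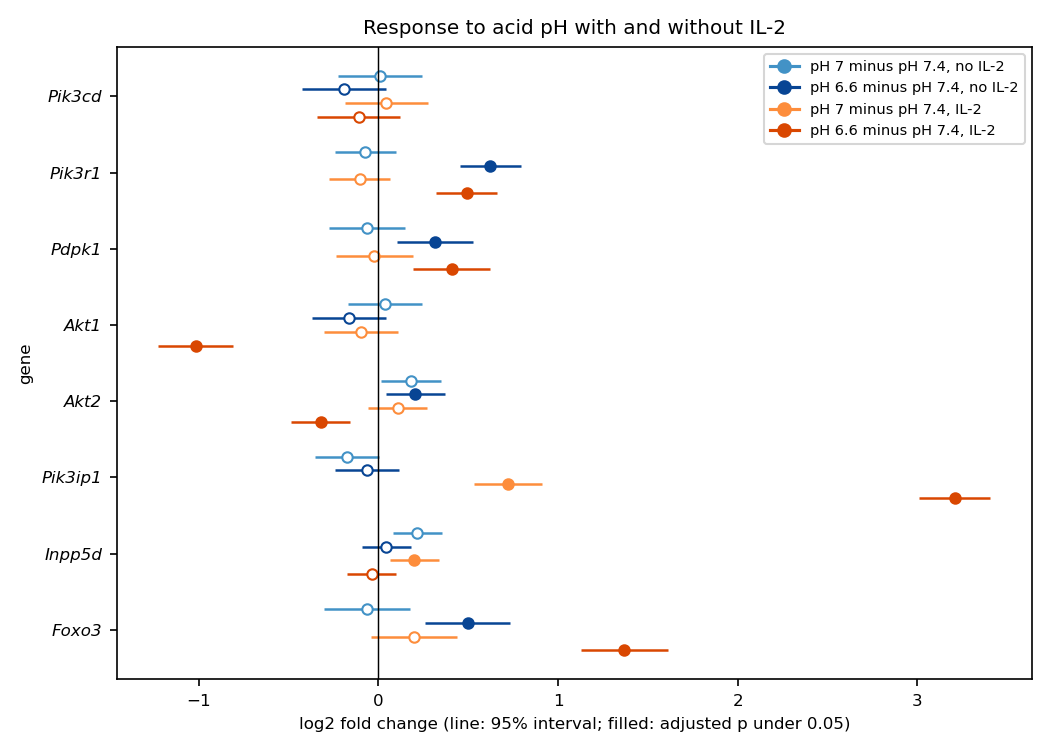
Log2 fold change of each gene at pH 7 or pH 6.6 against pH 7.4, without IL-2 (blue) and with IL-2 (orange), with 95% intervals from the fit across all genes; filled points passed an adjusted p of 0.05. Pik3ip1 at pH 6.6 with IL-2 lies at 3.21 and without IL-2 at -0.06, and Akt1 at -1.02 and -0.16.

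The response to IL-2 called 7 of the 8 members at pH 7.4, where 80.4% of all genes passed (39.3% higher, 41.1% lower), 7 at pH 7, where 77.2% passed (37.6% higher, 39.5% lower), and 3 at pH 6.6, where 23.7% passed (13.2% higher, 10.6% lower). At both higher pH values Akt1, Akt2 and Pik3cd were higher with IL-2 and Pik3ip1, Foxo3, Pik3r1 and Pdpk1 were lower, and Inpp5d missed the threshold. At pH 6.6 those called were Pik3cd, higher, and Pik3r1 and Pik3ip1, lower, and with only the groups compared in the fit Akt1, Akt2 (0.14, adjusted p = 0.0303) and Pdpk1 (-0.17, adjusted p = 0.00722) passed too. A call at one pH and not at another does not by itself show a difference, and the direct test of pH 6.6 against pH 7.4 in the response to IL-2 passed for 4 members (Pik3ip1 and Foxo3 positive, Akt1 and Akt2 negative), against 67.0% of all genes tested (34.3% positive, 32.8% negative). For Pik3cd, Pik3r1, Pdpk1 and Inpp5d that difference had intervals that included 0. The same test for pH 7 passed for 1 member, Pik3ip1, which was positive, against 4.79% of all genes (2.19% positive, 2.60% negative). That background was 662 genes, and 99 without replicate 2 or 123 without replicate 3.

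**Figure D4:**
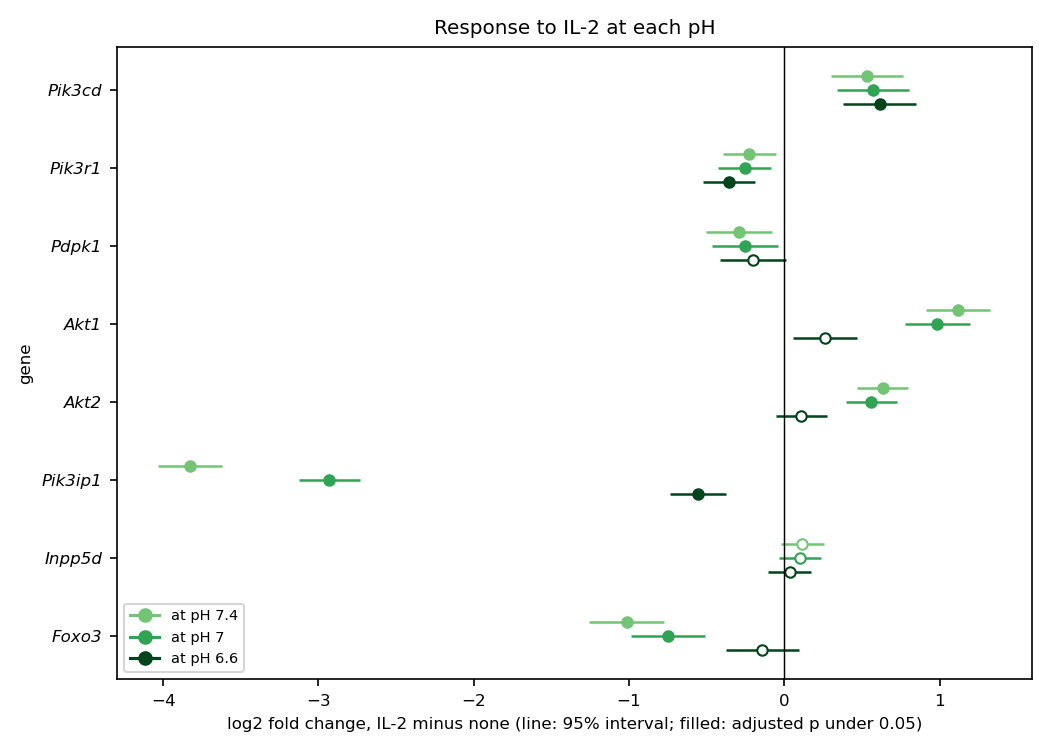
Log2 fold change of each gene with IL-2 against none at pH 7.4, pH 7 and pH 6.6, with 95% intervals from the fit across all genes; filled points passed an adjusted p of 0.05. The 3 points of Pik3cd lie close together, from 0.53 to 0.61, whereas those of Pik3ip1 run from -3.83 at pH 7.4 to -0.55 at pH 6.6.

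CTLs at pH 6.6 with IL-2 were also set against CTLs at pH 7.4 without the cytokine. Here 5 of the 8 members differed (64.4% of all genes, 30.4% higher and 34.1% lower), 4 of them higher at pH 6.6 with IL-2. Pik3cd (0.42), Foxo3 (0.36), Akt2 (0.31) and Pik3r1 (0.27) had positive log2 fold changes, the call for Foxo3 being lost without replicate 2 (adjusted p = 0.0682). Pik3ip1 was lower, at -0.62 (SE 0.09, adjusted p = 3.17e-07), with no overlap between groups. The difference for Akt1 was 0.10 (95% interval -0.10 to 0.31, adjusted p = 0.387).

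The CTLs at 0 h were taken from expansion in IL-2, so in comparisons with them the time in culture and the changed conditions cannot be told apart. After 24 h at pH 7.4 without IL-2, 7 of the 8 members differed from 0 h (75.2% of all genes, 36.9% higher and 38.3% lower). Pik3ip1, Pdpk1 and Inpp5d were higher and Pik3cd, Akt1, Akt2 and Pik3r1 lower, and Foxo3 passed too without replicate 1 (0.31, adjusted p = 0.0172). Pik3cd had the largest fall, a log2 fold change of -0.85 (SE 0.12, adjusted p = 6.97e-08). With IL-2 at pH 7.4, 7 members differed from 0 h (59.9% of all genes, 29% higher and 30.9% lower), with Akt1 (0.52), Inpp5d (0.39) and Akt2 (0.25) higher and Pik3ip1, Foxo3 (-0.82), Pik3r1 (-0.60) and Pik3cd (-0.32) lower on the log2 scale. The call for Akt2 was lost without replicate 4 (adjusted p = 0.0658), that for Pik3cd without replicate 1, 2 or 3 (0.131, 0.118 and 0.0554), and both with only the groups compared (0.0518 and 0.0669), while Pdpk1 passed without replicate 4 (0.0184). At pH 6.6 with IL-2, 6 members differed from 0 h (68.5% of all genes, 30.5% higher and 38.0% lower), with Pik3ip1, Pdpk1, Foxo3 and Inpp5d higher and Akt1 and Pik3cd lower, and Pik3r1 and Akt2 missed the threshold. The Pik3cd value here was -0.43, and -0.28 without replicate 3, where its call was lost (adjusted p = 0.0672), as it was with only the groups compared (0.0633).

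Other genes of the pathway were counted in 7 lists holding 72 genes, of which 70 were tested (Gab1 and Foxo6 had too few counts). At pH 6.6 with IL-2, 54 of the 70 passed the threshold, 39 higher and 15 lower, where 76.3% of all genes passed (35.4% higher and 40.9% lower), with a median log2 fold change of 0.53 against -0.07 over all genes tested. IL-2 at pH 7.4 called 57 of 70, 15 higher and 42 lower (median -0.55, against -0.04 over all genes), where 80.4% of all genes passed (39.3% higher and 41.1% lower). At pH 6.6 without IL-2 the count was 52 of 70, 29 higher and 23 lower (median 0.05, against -0.03), beside 67.0% of all genes, and for IL-2 at pH 6.6 it was 20 of 70, 5 higher and 15 lower (median -0.13, against -0.04), beside 23.7%. In both comparisons with the most calls the total was near the share over all genes, and the counts of single lists that follow are to be read against the same shares. The lists were chosen with earlier results of these data known, so their counts and medians are descriptions and not tests. Genes of the lists said to rise or fall were higher or lower than in the group compared, and not than at 0 h.

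Among other PI3K subunits, 4 of 7 passed at pH 6.6 with IL-2, 2 in each direction (76.3% of all genes, 35.4% higher and 40.9% lower). Pik3ca, the ubiquitous p110 alpha subunit, rose by 0.76 on the log2 scale (adjusted p = 5.84e-11), and Pik3cb, p110 beta, had a log2 fold change of -0.81 (adjusted p = 3.69e-07). Of 8 adaptors tested, 5 rose and 1 fell. Irs2, which couples insulin and cytokine receptors to PI3K, rose by 3.59 (SE 0.22, adjusted p = 1.8e-15) and Gab2, a docking protein, by 1.73 (SE 0.11), and both were lower with IL-2 at pH 7.4 (log2 fold changes -2.94 and -1.54).

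The lipid phosphatases were mixed, with 4 of 9 higher and 2 lower at pH 6.6 with IL-2 (35.4% and 40.9% of all genes). Inpp4a, which removes the 4-phosphate of PI(3,4)P2, rose by 1.70 on the log2 scale, and Inpp5k, a phosphoinositide 5-phosphatase, by 1.08. Without IL-2, Inpp5k had a log2 fold change of -0.39 at pH 6.6. In that comparison all 9 phosphatases passed the threshold, 3 higher and 6 lower (67.0% of all genes, 31.6% higher and 35.4% lower).

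Each of the 6 genes in the list of AKT family and mTORC2 subunits changed at pH 6.6 with IL-2, 3 in each direction. Of all genes, 35.4% were higher and 40.9% lower. Rictor, the subunit that defines mTORC2, rose by 1.63 (adjusted p = 4.35e-14) and Deptor, an mTOR inhibitor, by 1.42 (SE 0.25). Deptor had low counts and did not pass the filter of at least 10 counts in every library. Its value ran from 1.18 to 1.74 over the settings that kept it. Of 9 AKT phosphatases and inhibitors, 4 rose and 3 fell. Trib1, a pseudokinase that recruits the ubiquitin ligase COP1, rose by 2.26 (SE 0.26) with IL-2 and by 2.29 (SE 0.26) without it, while IL-2 at pH 7.4 left a difference of -0.0019 (adjusted p = 0.995), whose sign depended on the settings. Phlpp1, a phosphatase that removes the hydrophobic-motif phosphate of AKT, rose by 1.14 with IL-2 and had a log2 fold change of -0.13 (adjusted p = 0.136) without it. The value without IL-2 passed when 1 of the replicates was left out (lowest adjusted p = 0.00746).

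Of 11 AKT substrates tested, 6 rose at pH 6.6 with IL-2 and none fell (35.4% and 40.9% of all genes). Foxo1, the nearest relative of Foxo3 in the list, rose by 0.84 (SE 0.09, adjusted p = 3.5e-10), and without IL-2 its difference was -0.06 (adjusted p = 0.53). Tbc1d4, a regulator of glucose transporter traffic, rose by 2.46 with IL-2 but was lower at pH 6.6 without it (log2 fold change -1.52, SE 0.11), and its response to IL-2 at pH 7.4 was -5.02 (SE 0.13).

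The list of genes known as FOXO targets was chosen with earlier results of these data known, so it is a description and not a test. It held 20 genes. At pH 6.6 with IL-2, 15 of them rose and 4 fell (35.4% and 40.9% of all genes), with a median log2 fold change of 1.62 (all genes, -0.07), and with IL-2 at pH 7.4, 2 rose and 17 fell (39.3% and 41.1% of all genes; median -1.43, all genes -0.04). Without IL-2, 7 rose and 7 fell at pH 6.6 (31.6% and 35.4% of all genes), with a list median of 0.05. Bcl6, a transcriptional repressor linked to memory T cells, rose by 4.12 at pH 6.6 with IL-2 (SE 0.16, adjusted p = 9.52e-21) and by 0.66 without it (SE 0.13). Fbxo32, a ubiquitin ligase subunit best known from muscle wasting, rose by 3.72 (SE 0.13) and by 0.64 (SE 0.11). Both remained lower with IL-2 at pH 6.6, by log2 fold changes of -0.88 and -0.52.

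**Figure D5:**
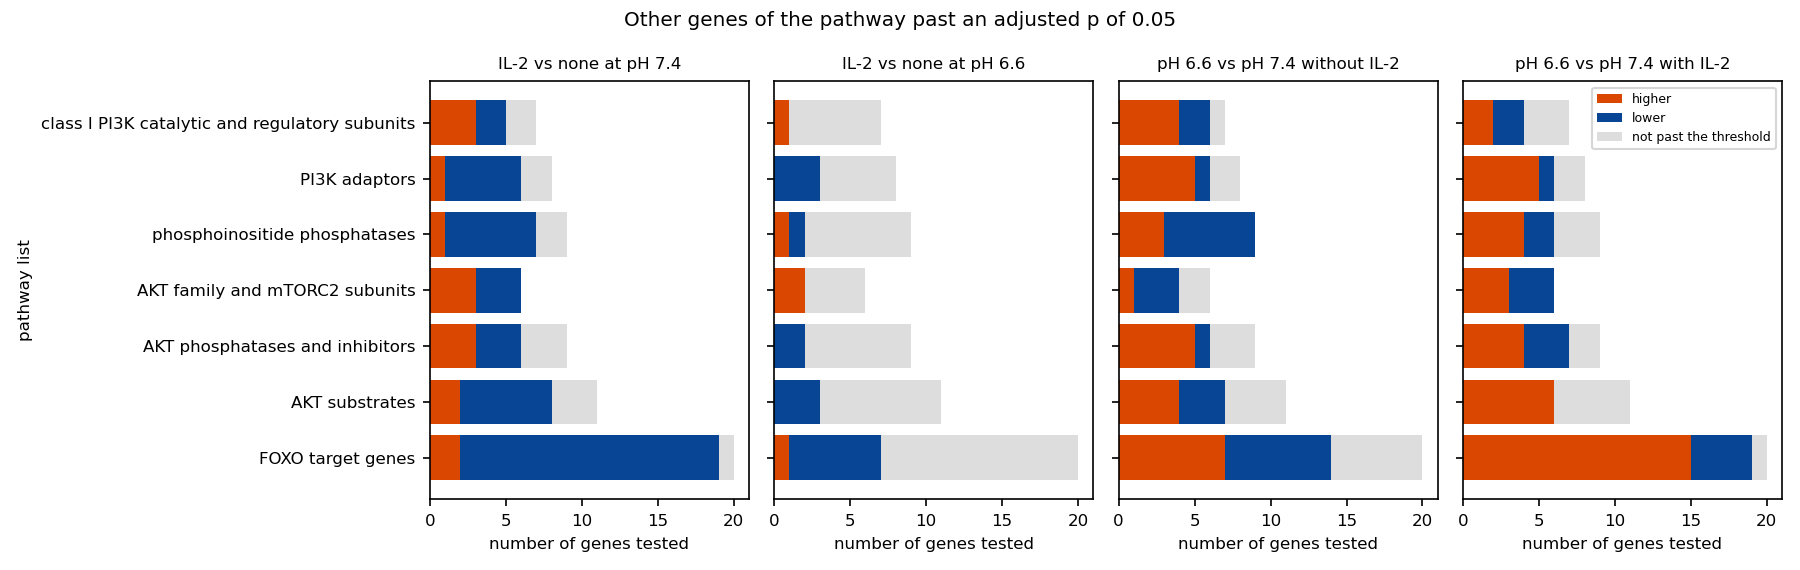
Number of tested genes in each of 7 pathway lists that were higher, lower or not past an adjusted p of 0.05, in 4 comparisons. In the list of FOXO targets 17 of 20 genes were lower with IL-2 at pH 7.4, beside 41.1% of all genes. At pH 6.6 with IL-2, 15 of 20 were higher, beside 35.4% of all genes. The lists were chosen with earlier results of these data known.

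Over the 35 libraries, the log2 levels of Akt1 and Pik3ip1 ran in opposite directions (Pearson's r = -0.95), as did those of Akt1 and Foxo3 (-0.87), while Pik3ip1 and Foxo3 ran together (0.86), as did Akt1 and Akt2 (0.86). Inpp5d correlated weakly with all other members, at most 0.46 in size (with Pik3r1, -0.46, and Akt2, 0.46). These are descriptions over libraries that fall into 7 groups and share replicates, and the differences between groups enter them. Of all genes tested, those most like Pik3ip1 were Fam160a2 (r = 0.989) and Ctdsp2 (0.988), and those most like Akt1 were Slc35a4 (0.985) and Wdr18 (0.984). Foxo3 was most like Flcn (0.963) and H2-Q6 (0.961), Pdpk1 like Tnks (0.96) and Usp9x (0.953), Akt2 like Lasp1 (0.94) and Tyro3 (0.933), and Pik3cd like Pde4c (0.939) and Sema4a (0.938). The closest genes were less alike for Pik3r1 (Ppm1l, 0.916, and Fam84b, 0.898) and for Inpp5d (Myh9, 0.863, and Plekhg3, 0.841).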

How the data were processed

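RNA of 35 libraries was analysed from the tables of raw counts per gene that the authors deposited, 1 per library. Per the labels and the submitters' processing notes, TruSeq stranded mRNA libraries were trimmed with cutadapt 1.8, aligned with STAR 2.5.2b to GRCm38 and counted with HTSeq 0.6.1; the annotation release is not given in the sources used here. The tables' 5 rows of unassigned reads entered neither totals nor tests. Of the reads in the tables, a median of 37.1% aligned to more than 1 place and 7.42% lay outside annotated genes.

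Gene symbols came from GENCODE M21 (GRCm38), which gave one to 48349 of 48709 identifiers, and exon lengths and uniqueness from the same annotation. Counts were scaled by TMM and genes with too few counts were removed with filterByExpr (minimum 10), which left 13819. A robust quasi-likelihood model (edgeR 4.0.16 in R 4.3.3) with group and replicate number as terms was fitted to all 35 libraries, and p-values were adjusted by Benjamini-Hochberg over all genes tested (threshold 0.05). The numbers come from the labels, and the study's own statistics are paired. Over all genes tested, libraries that share a number departed together from the means of their groups (correlation over 0.1) in all 5 pairs for 8 of 11 two-group comparisons, including those at pH 6.6 against pH 7.4. No 2 libraries of a group agreed within sampling noise. Ratios within a library were compared by two-sided exact permutation tests.

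The named genes were the 8 members, Foxo1, the 2 largest changes of each pathway list among genes called at pH 6.6 with IL-2, and the 2 genes most correlated with each member; 2 further genes of this rule are not reported here. Ncr1 and other marker genes were taken from fixed lists. The members and lists were chosen with earlier results of these data known. Alternatives were DESeq2 1.42.0, RLE scaling, 2 other filters, no replicate block, only the groups compared, no 0 h libraries, and leaving out each replicate. Upstream sequences were RefSeq's for GRCm38.p6. The edgeR step was tried on simulated counts for pH 6.6 against pH 7.4 with IL-2. These held no replicate effect and far fewer changed genes than the data, so they do not test the scaling or the replicate block. Of genes changed by 0.5, 1 and 2 on the log2 scale, 43 of 58, 58 of 63 and 61 of 63 were recovered, with 14 calls among unchanged genes.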

Additional observations from a re-analysis of the deposited data

Results flagged for a closer look

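In 5 cases the response of a member to acid pH differed between CTLs with and without IL-2 by the test of the difference itself, on the log2 scale and with edgeR's adjusted p. At pH 6.6 the difference was 3.27 for Pik3ip1 (adjusted p = 8.72e-20), 0.87 for Foxo3 (2.64e-05), -0.86 for Akt1 (4.15e-06) and -0.53 for Akt2 (0.000157), each with its sign in 5 of 5 replicates. At pH 7 it was 0.90 for Pik3ip1 (0.000193). At pH 6.6 67.0% of all genes tested passed the same test, and at pH 7 4.79%.

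In 2 of 56 sets of 5 libraries (8 genes in 7 groups), 1 library stood apart from the other 4. Pdpk1 in replicate 1 at pH 7 without IL-2 was at 185.4 CPM, with the others between 153 and 156 CPM. Pik3r1 in replicate 4 at pH 6.6 without IL-2 was at 194.4 CPM, with the others between 251 and 268 CPM. Chance alone puts about 1 set in 20 past this limit.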

How the results depend on the processing

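No fold change that passed the threshold changed its sign under any alternative. Over all alternatives, 1156 refitted fold changes of members kept their direction and their side of the threshold, 16 newly passed and 27 no longer passed. A further 25 changed sign without passing on either side, the largest 0.0749 in size on the log2 scale. The fold changes of Pik3ip1, Foxo3, Akt1 and Pik3r1 at pH 6.6 with IL-2 passed under every alternative run, with log2 fold changes without any 1 replicate of 3.14 to 3.28, 1.32 to 1.49, -1.05 to -0.88 and 0.48 to 0.55. The calls of members that depended on a setting are given beside the results, and the cause was not tested.

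The number of members called for IL-2 at pH 6.6 was 3, and 6 with only the groups compared in the fit, where other pathway genes called were 38 (20 in the main analysis) and all genes called 5494 (3278, and 2120 without replicate 4). For pH 7 with IL-2 the number was 2, and 1 with the loosest filter, 1 without the replicate block, 1 without any 1 replicate and 3 with only the groups compared. For pH 6.6 without IL-2 it was 4, and 2 to 5 without any 1 replicate, 2 without replicate 2 or 3. For pH 7 without IL-2 it was 0, and 2 with only the groups compared and 0 to 1 without any 1 replicate. Without the 0 h libraries, an alternative chosen after seeing the data, the counts of members stayed within 1.5 times. All genes called at pH 7 changed by more than 1.5 times, from 2623 with IL-2 to 1660 without the replicate block, 4397 with only the groups compared and 1323 without replicate 3 (1343 without replicate 2), and from 232 without IL-2 to 56, 926 and 91 under the same settings (42, 144 and 154 without replicate 2, 4 or 5, and 370 without the 0 h libraries). The test of the difference at pH 7, with 662 genes called, gave 177 without the block, 1618 with only the groups compared, 326 with the loosest filter, 1016 with DESeq2, 1500 without the 0 h libraries, and 99, 123, 303 and 378 without replicate 2, 3, 4 or 5. The difference in mean Pik3r1 to Pik3cd log2 ratio between IL-2 and none at pH 6.6 was -0.96, and -1.04 to -0.90 without any 1 replicate. It no longer passed the threshold without replicate 1, 2 or 5 (adjusted exact permutation p = 0.0653).

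Apart from the calls named beside the results, the replicate block changed no call of a member. In 3 comparisons (IL-2 at pH 7, and pH 7.4 without IL-2 and pH 6.6 with IL-2 against 0 h) 3 or 4 of 5 pairs deviated together. Counting precision is not the limit for any member, since the lowest count was 379.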
